A study of Heterocephalus glaber with 3 samples.

Results

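A set of 95 mesothelial-like cells was followed among 25044 cells that passed quality control in single-cell RNA sequencing of naked mole-rat lung tumours. A cell entered the set when mesothelin (MSLN), a surface glycoprotein of serosal cells, reached at least 5 unique molecular identifiers (UMIs) per 10000 of the cell and at least 2 UMIs, and when PRG4, TFPI2 and HAS1 together gave at least 2 UMIs. The levels of these 4 genes therefore describe the set and enter no test. The tumours came from 3 naked mole-rats (Heterocephalus glaber) infected with CRISPR adenovirus and collected 15 weeks later. The 3 animals formed 1 group; Rb loss and an inversion that joins Eml4 to Alk were among the edits each carried, and no group without edits was analysed here. Tumours were cut away from normal lung by hand, and 1 droplet library (10x Genomics, 3′ end counting) was made per animal. The labels do not say how much pleura each piece held, which cell types the virus reached or how old the animals were.

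Mesothelium is the layer of flat cells that covers the lung, the pleural wall and the other serous cavities. It has keratins, desmosomes and tight junctions like an epithelium, yet it is of mesodermal origin and shares vimentin and matrix genes with fibroblasts. Its cells keep the opposed surfaces sliding: they secrete hyaluronan, made at the plasma membrane by the HAS enzymes, and lubricin, the mucin-like glycoprotein encoded by PRG4. They also control clotting and fibrinolysis in the cavity, and TFPI2 is a secreted inhibitor of serine proteases. The naked mole-rat is known for abundant hyaluronan of very high molecular mass in its tissues.

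The libraries held 9500 to 10000 cell barcodes and 76093932 to 91949365 UMIs, and 7951 to 9015 cells per animal passed quality control (at least 1000 UMIs and 500 genes, under 20% of UMIs in 13 mitochondrial genes). The mesothelial-like cells were deeper than the rest, with median totals of 9892, 12404 and 9381 UMIs in replicates 1, 2 and 3 against 5031, 5173 and 8105 in all other cells. Their median mitochondrial share was also higher, at 14.5%, 10.7% and 10.3% against 6.35%, 6.19% and 7.27%. In replicate 1, a single cell of 98238 UMIs gave 64.7% of the UMIs of its 7 cells. Transcripts of another lineage passed limits, set after the cells were seen, in 11 of the 95 cells. These were at least 2 UMIs of the leukocyte gene PTPRC in 8 cells and over 1000 immunoglobulin light chain (IGKC) UMIs in 2. The airway gene SCGB3A2 reached 455 UMIs in 1, and 1 met the fibroblast criterion below. Lower amounts were more common: PTPRC was found in 18 cells, and median IGKC was 23, 23 and 17 UMIs in replicates 1, 2 and 3. A Scrublet doublet score of at least 0.2 marked 2 of the 95. Counts called were therefore also made without cells over 50000 UMIs and without the 11 cells. Pairs of libraries shared 21 to 31 barcodes among the cells that passed, which included 1 of the 95.

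The mesothelial-like cells numbered 7, 26 and 62 in replicates 1, 2 and 3. These were 0.0867% (exact 95% binomial interval 0.0348 to 0.178), 0.288% (0.188 to 0.422) and 0.780% (0.598 to 0.999) of the cells of each animal. The mean share was 0.385% ± 0.357 (SD, n = 3), so the spread between animals was almost as large as the mean, and the intervals of the 3 animals did not overlap. Intervals cover counting error only. More mesothelium in an animal and more pleura in the dissected piece cannot be told apart.

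**Figure D1:**
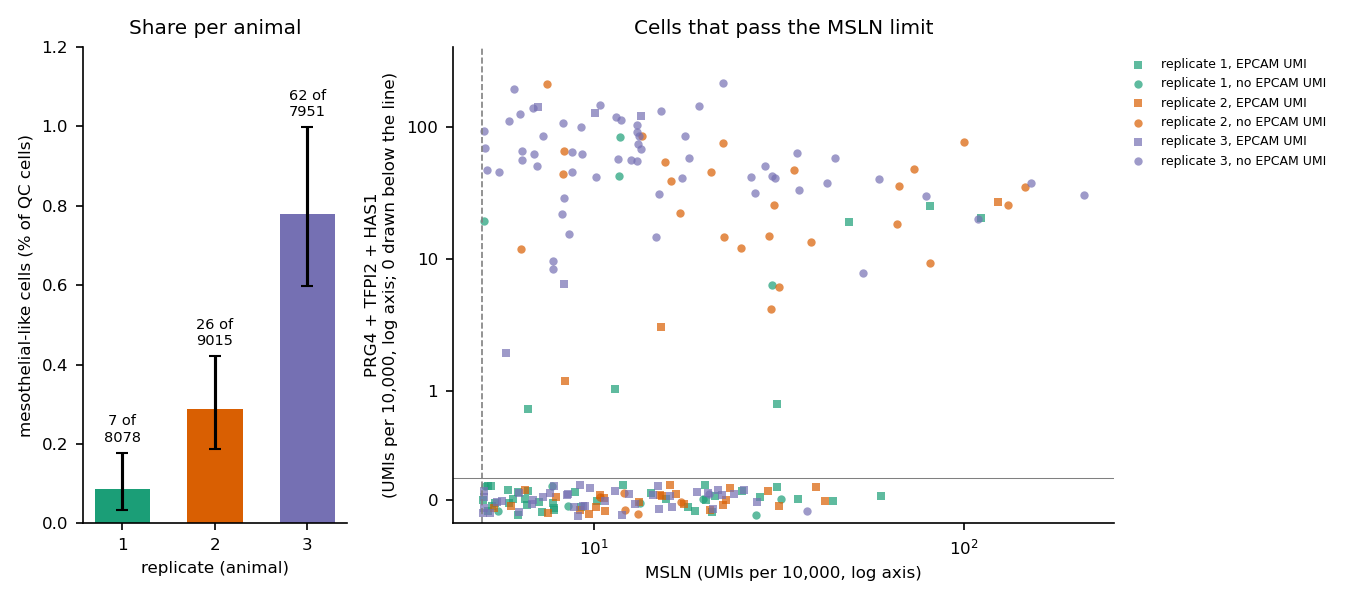
Left, bars give the mesothelial-like cells as a percentage of quality-controlled cells (y axis) in each animal (x axis), with exact 95% binomial intervals, from 0.0867% to 0.780%. Right, each of the 218 cells past the MSLN limit is placed by MSLN (x axis) and by PRG4, TFPI2 and HAS1 together (y axis), both in UMIs per 10000 on log axes; squares carry an EPCAM UMI, and the band drawn at 0 holds the 117 cells with no partner UMI, 102 of them with EPCAM.

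Neither limit alone singled the set out. The partner limit was passed by 1259 cells with 0 MSLN UMIs, 366 of them with MFAP4 and 12 with WT1. It was also passed by 44 cells with 1 MSLN UMI, 5 of them with WT1. The MSLN limit was passed by 218 cells. Of these, 95 also passed the partner limit, 6 had 1 partner UMI and 117 had none. The 2 kinds of cell differed in genes the choice did not use: 108 of the 123 cells outside carried EPCAM, an adhesion molecule of epithelium, against 8 of the 95 inside. WT1, a transcription factor of mesothelium, was present in 51 of the 95 and in 1 of the 123, the claudin gene CLDN15 in 44 and in 0, and GPM6A in 44 and in 9. The cells outside were shallower, with medians of 4100, 2832.5 and 6164 UMIs in replicates 1, 2 and 3 against 9892, 12403.5 and 9380.5 inside, and the part of depth in these counts was not tested. No mesothelial-like cell sat at exactly 2 partner UMIs, 2 sat at exactly 2 MSLN UMIs, and 30 lay under 10 MSLN UMIs per 10000. Just outside the MSLN limit, 36 cells passed the partner limit with 2 or more MSLN UMIs but under 5 per 10000, and 18 of them carried WT1; they were deep cells, with median totals of 27544.5, 24707.5 and 15132.5 UMIs in replicates 1, 2 and 3.

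Within the set, MSLN ran from 5.05 UMIs per 10000 at the lowest through a median of 14.8 to 211 at the highest. PRG4 ran from 0 through 11.2 to 174, and TFPI2 from 0 through 27.8 to 124. PRG4 was detected in 84 of the 95 cells, TFPI2 in 94 and HAS1, a hyaluronan synthase, in 19. The commonest combination was PRG4 with TFPI2 and no HAS1, in 66 cells; 17 had all 3, 9 had TFPI2 alone, 2 had TFPI2 with HAS1 and 1 had PRG4 alone. HAS1 stayed at or below 2.79 UMIs per 10000 in any cell. Summed over the cells of an animal, MSLN was 3414, 3347 and 1929 CPM (UMIs of the gene per 1000000 UMIs of the sum) in replicates 1, 2 and 3, and PRG4 was 989, 1881 and 2351. The set held 59.6% of all MSLN UMIs in the cells that passed. EPCAM epithelial cells, defined below, held 1145 of the other 2140, and 144 of 293 of them (49.1%) carried an MSLN UMI.

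The label was checked against 14 mesothelial markers other than those of the choice. Of these, 5 were measured under their symbols: WT1, CLDN15, GPM6A, Krt8 and CALB2. The first 4 were found in the set and CALB2, calretinin, gave 0 UMIs, which allows up to 2.40 CPM at a floor of 3 counts. Per cell, 11 of the 95 carried WT1, CLDN15 and GPM6A together, 37 carried 2 of them, 32 carried 1 and 15 carried none. The cells with none were shallower (median 7321 UMIs) than those with all 3 (median 13206). Free RNA in the droplets can give UMIs in cells that do not make a gene, so the same count was made in 14273 cells with at least 2 PTPRC UMIs: 73 carried 1 of the 3 genes, 3 carried 2 and 0 carried all 3, which allows a share of up to 0.0210%. By single gene, WT1 was found in 53.7% of the mesothelial-like cells against 0.112% of the PTPRC cells, CLDN15 in 46.3% against 0.238%, and GPM6A in 46.3% against 0.203%. SFTPC, the surfactant gene of alveolar type 2 cells, was found in 46.3% of the set and in 38.8% of the PTPRC cells, at median depths of 9380.5 to 12403.5 and 5719 to 8722 UMIs by animal, so an SFTPC UMI did not mark a lineage in these libraries. On these markers the cells are called mesothelial-like below.

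The set was then compared within each animal with all other cells, and with fibroblasts and epithelial cells, each of which shares part of its gene expression with mesothelium. Fibroblasts were 687 cells with MFAP4 at the same limits and at least 2 UMIs of FIBIN, PDGFRA and COL1A1, and epithelial cells were 293 cells with EPCAM at the same limits and at least 2 UMIs of Krt8 and CDH1 (KRT18 was not found under its symbol). Genes that chose these classes were left out of the tests between them. UMIs were summed per animal and class and tested with edgeR's quasi-likelihood test, animal as block, at a Benjamini-Hochberg adjusted p under 0.05; fold changes are log2 values ± standard error (SE), over 3 animals. Against all other cells, 14.4% of 14040 genes passed (878 higher, 6.25%, and 1141 lower, 8.13%). Against fibroblasts 13.7% of 9279 genes passed (604 higher, 6.51%, and 668 lower, 7.2%), and against epithelial cells 19.6% passed (895 higher, 9.65%, and 922 lower, 9.94%). The median log2 fold change over all genes was -0.24, -0.055 and -0.025. A gene near 0 in the other class passes the filter on low counts only through the mesothelial-like cells, so such a gene had to differ. Fold changes of such genes are descriptions, and so are the list counts below, which stand beside these percentages. Replicate 3 held most of the cells: without it edgeR called 0 genes against all other cells (2350 at an unadjusted p under 0.05), while 535 remained against fibroblasts and 667 against epithelial cells. Beside each list stand its median log2 fold change, the counts that moved by more than 1.5 times without replicate 1, 2 or 3 (against all other cells without 1 or 2), and the range over the other 12 alternatives (other tools and filters, no replicate block, stricter or looser limits for the cells, a mitochondrial limit of 10%, cells matched on depth, and the cells of high Scrublet score, over 50000 UMIs or of mixed lineage left out) where one of them moved a count that far. Every call against all other cells named below was lost without replicate 3, and this is not repeated.

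WT1 gave 59.3, 104 and 62.9 CPM in the mesothelial-like cells of replicates 1, 2 and 3. All other cells gave 0.0853, 0.208 and 0.655 CPM, so the groups did not overlap, and the log2 fold change was 7.94 ± 0.61. CLDN15, a tight junction claudin, gave 224, 46.5 and 45.2 CPM against 0.199, 0.269 and 0.433 in all other cells, a log2 fold change of 7.90 ± 0.62. In replicate 1, 29 of its 34 UMIs came from the single deepest cell. WT1 and CLDN15 passed the filter on low counts only through the mesothelial-like cells, so their fold changes describe the set and test nothing. GPM6A, a membrane glycoprotein, gave 125, 112 and 69.8 CPM against 0.611, 0.770 and 0.989 (6.86 ± 0.38, edgeR adjusted p = 8.66e-06). In replicate 1, 15 of its 19 UMIs came from 1 cell. The same genes stood apart from both neighbouring classes. WT1 was represented by 1 UMI in fibroblasts and 1 in epithelial cells, ratios of 316 (95% interval 55.3 to 12597) and 304 (95% interval 53.2 to 12134) from the pooled counts. CLDN15 had 0 UMIs in epithelial cells, at least 91.5-fold fewer at a floor of 3 counts over the class.

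**Figure D2:**
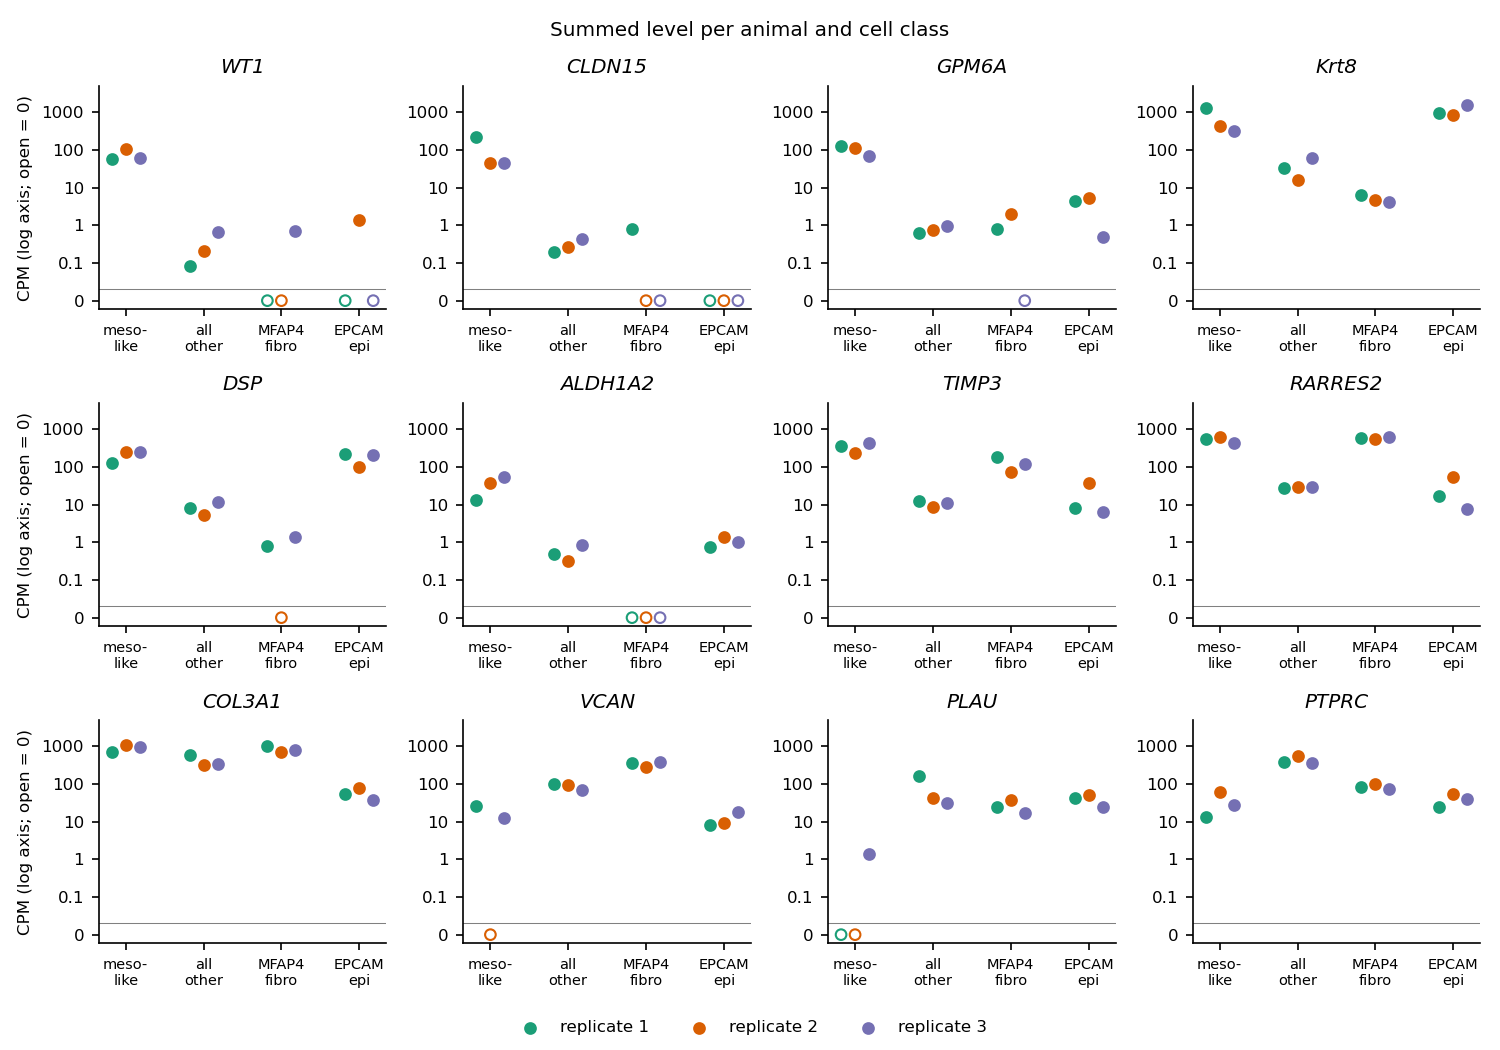
CPM (y axis, log scale, open circles at 0) of 12 genes in the summed cells of each animal (colours), for mesothelial-like cells, all other cells, MFAP4 fibroblasts and EPCAM epithelial cells (x axis). WT1, CLDN15 and GPM6A are at 45.2 CPM or more in the 3 mesothelial-like sums and at 5.39 CPM or less in the 9 other sums. Krt8 and DSP lie beside the epithelial values and RARRES2 and COL3A1 beside the fibroblast values. Krt8 was among the genes that chose the epithelial cells, so its level there was partly set by the choice.

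Of 28 genes listed for mesothelial identity, 14 were measured and 12 tested, and 8 were higher and 0 lower than in all other cells (median 3.73). Beyond the 3 genes above, TM4SF1, a tetraspanin-like membrane protein, gave 2649.6, 1441 and 1295 CPM against 63.9, 91.9 and 72.3 in all other cells (4.40 ± 0.28). It was also higher than in fibroblasts (2.34 ± 0.25) and epithelial cells (2.87 ± 0.26). In replicate 1, 305 of its 402 UMIs came from 1 cell. Hp, which encodes the haemoglobin-binding protein haptoglobin, gave 3421, 8291 and 19521 CPM against 337, 299 and 635 (4.28 ± 0.40). Its levels in epithelial cells, 5701, 4455 and 2986 CPM, overlapped those of the set. EFEMP1, a fibulin of the extracellular matrix, gave 593, 563 and 468 CPM against 68.4, 71.9 and 49.3 (3.02 ± 0.21) and did not pass against fibroblasts (-0.61 ± 0.32). Krt8, a keratin of simple epithelia, gave 1318, 446 and 313 CPM against 32.5, 15.9 and 62.3 (4.11 ± 0.53); its call was lost without any 1 of the 3 replicates, at 3.56, 3.62 and 4.97 without replicates 1, 2 and 3, and 161 of its 200 UMIs in replicate 1 came from the deepest cell. RSPO1 was found in 9 cells and lost its call without replicate 2. TCF21 and DES gave 0 UMIs in the set. Of 9 listed genes tested against fibroblasts, 5 were higher and 2 lower (median 1.74; 0 lower without any 1 replicate, 0 to 2 lower over the other alternatives), and against epithelial cells 6 were higher and 0 lower (median 2.87).

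The genes of largest fold change against all other cells included several with no place in the lists. CDSN, corneodesmosin, an adhesion protein of the skin, gave 79.1, 21.9 and 42.4 CPM in the set and 0.0284, 0.0244 and 0.148 in all other cells (9.15 ± 0.66). SIDT1, a membrane protein of nucleic acid uptake, gave 85.7, 71.1 and 73.9 CPM against 0.142, 0.0978 and 0.704 (8.05 ± 0.61), and GNGT1, a G protein gamma subunit of photoreceptors, 13.2, 109 and 115 against 0.0427, 0.122 and 0.853 (8.12 ± 0.64). All 3 had 0 UMIs in fibroblasts, which makes the set at least 57.7-fold, 105-fold and 143-fold higher at the floor of 3 counts. The orphan receptor gene GPR37 gave 52.7, 13.7 and 21.9 CPM against 0.0569, 0.0611 and 0.0865 (8.33 ± 0.63). CDSN, SIDT1, GNGT1 and GPR37 passed the filter on low counts only through the set, so their fold changes are descriptions. GATM, the enzyme of the first step of creatine synthesis, was detected in 78 of the 95 cells. Its sums of 461, 809 and 498 CPM stood against 1.21, 3.49 and 6.58 in all other cells (7.44 ± 0.46), and fibroblasts held 2 UMIs, a ratio of 1239 (95% interval 342 to 10246). Apoa1, the main apolipoprotein of high-density lipoprotein, was found in 83 cells at 448, 509 and 766 CPM against 2.47, 2.81 and 8.82 (7.04 ± 0.33). In replicate 1, 52 of its 68 UMIs came from 1 cell. Among genes named for the epithelial comparison, TG, which encodes thyroglobulin, gave 165, 84.8 and 78.0 CPM in the set, 9.36, 23.9 and 11.7 in fibroblasts and 1 UMI in epithelial cells. It was found in 53 of the 95 cells, and it passed against fibroblasts (2.90 ± 0.42) and against all other cells (5.70 ± 0.39).

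The largest differences from each neighbouring class were in genes detected on 1 side only or nearly so. APLP1, a relative of the amyloid precursor protein, was found in 78 of the 95 cells at 244, 229.7 and 257 CPM, and fibroblasts held 3 UMIs, a ratio of 349 (95% interval 118 to 1704). HTRA3, a secreted serine protease, was found in 64 cells at 309.8, 164 and 227 CPM against 2 UMIs in epithelial cells, a ratio of 446 (95% interval 122 to 3703). OSR1, a transcription factor of mesoderm, and MRGPRF, a receptor, were each found in 35 cells and had 0 UMIs in epithelial cells, at least 63.2-fold and 79.5-fold fewer. On the lower side the set had 0 UMIs of each gene that follows. Against fibroblasts these were FOXF2, a transcription factor of lung mesenchyme (at least 23.6-fold lower), the receptor of interleukin 33, IL1RL1 (45.8-fold), the transporter ABCA8 (34.3-fold) and the peptide hormone gene CCK (17.2-fold). Against epithelial cells they were the haem-binding protein HPX (at least 66.3-fold lower), the keratin KRT23 (52.4-fold), the neuroendocrine peptide GRP (47.3-fold), the neuronal gene STMN2 (44.0-fold), the EGF receptor ligand AREG (42.8-fold), the filament-anchoring protein LAD1 (39.9-fold) and the phospholipase PLA2G1B (37.5-fold). GAL, the peptide galanin, gave 52.8, 60.9 and 32.5 CPM in all other cells and was at least 20.2-fold lower, a call that was lost under the looser limits of 2 MSLN UMIs and 1 partner UMI.

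Junction genes set the cells apart from fibroblasts. Of 12 tested, 7 were higher and 0 lower than in fibroblasts (median 2.52). DSP, desmoplakin, the plaque protein that ties desmosomes to keratin, gave 125, 243 and 255 CPM against 0.780, 0 and 1.38 in fibroblasts, where 3 UMIs were found, a ratio of 333 (95% interval 113 to 1622) from the pooled counts. Its level in epithelial cells, 215, 102 and 207 CPM, overlapped that of the set and did not pass. CDH3, P-cadherin, gave 79.1, 112 and 73.9 CPM against 6.24, 9.98 and 6.90 in fibroblasts (3.59 ± 0.31) and did not pass against epithelial cells, at 90.4, 99.6 and 145 CPM. The tight junction protein OCLN (4.06 ± 0.68) and the polarity protein PARD6B (3.82 ± 0.52) showed the same order, with no call against epithelial cells. OCLN gave 19.8, 21.9 and 10.9 CPM in the set and 29.4, 37.7 and 43.3 in epithelial cells. PKP2 and CLDN1 were also higher than in fibroblasts, where CLDN1 had 2 UMIs against 34 in the set.

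Other junction genes separated the set from epithelium: 4 of the 12 were lower there and 1 higher (median -0.61; 2 higher without replicate 1, 0 higher and 2 lower without replicate 3, 0 to 1 higher over the other alternatives). CLDN10 gave 6.59, 0 and 16.4 CPM against 889.6, 510.3 and 569.7 in epithelial cells (-5.72 ± 0.44). CLDN3 had 0 UMIs in the set, at least 13.1-fold lower, and CLDN4 had 2 UMIs. JUP, plakoglobin, was lower at -1.68 ± 0.29, a call lost without replicate 3 (-1.25). CLDN1 was the higher gene, and its call was lost without replicate 3 or without the 11 cells of mixed lineage. Of 14 junction genes tested against all other cells, 5 were higher and 0 lower (median 0.68; 3 higher without replicate 1, 1 higher without replicate 2, 1 to 7 higher and 0 to 1 lower over the other alternatives). DSP was the gene that kept its call without replicate 2 (7.93, 5.19 and 11.8 CPM in all other cells, 4.60 ± 0.38).

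**Figure D3:**
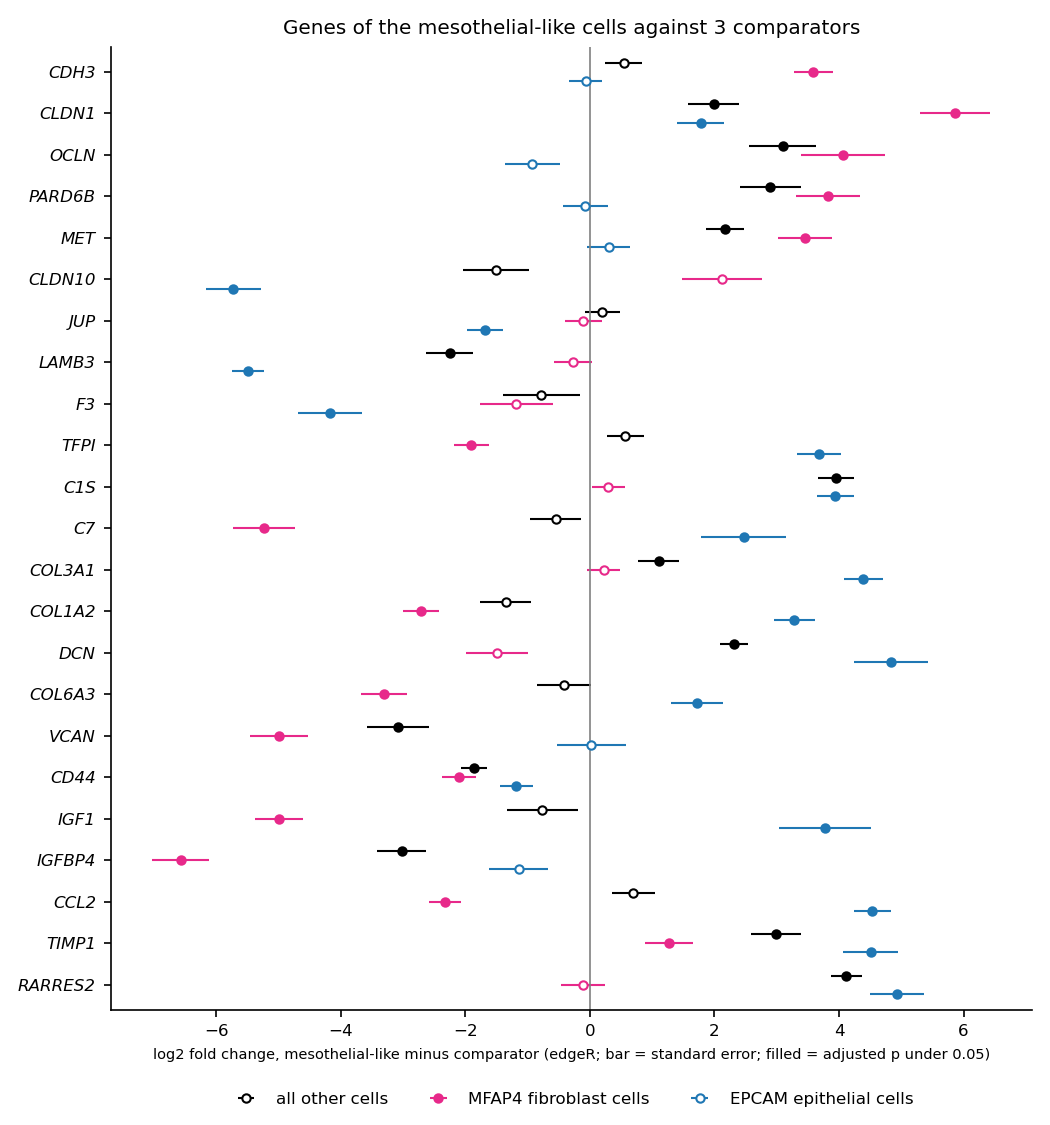
Log2 fold change of the mesothelial-like cells (x axis) over all other cells, MFAP4 fibroblasts and EPCAM epithelial cells (colours) for 23 genes (y axis), with bars of 1 standard error and filled points where the adjusted p was under 0.05 (edgeR, 3 animals). CDH3, OCLN and PARD6B are right of 0 with filled points against fibroblasts and have open points against epithelial cells, while COL1A2, COL6A3 and DCN lie left of 0 against fibroblasts and right of 0 against epithelial cells.

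Matrix genes gave the opposite order. Of 13 collagen and proteoglycan genes tested, 11 were higher and 0 lower than in epithelial cells (median 2.78; 5 higher without replicate 3, 7 to 12 higher and 0 to 1 lower over the other alternatives). Against fibroblasts 0 were higher and 7 lower (median -1.50). COL1A2, a chain of the main fibrillar collagen, gave 125, 101 and 194 CPM, between 1294, 842 and 968 in fibroblasts (-2.72 ± 0.29) and 22.6, 21.5 and 12.4 in epithelial cells (3.28 ± 0.33). COL6A3, of the beaded collagen VI, gave 26.4, 16.4 and 46.5 CPM against 344, 314 and 288 in fibroblasts (-3.30 ± 0.37). COL3A1 differed from this order: 718, 1067 and 966 CPM in the set overlapped 1021, 688 and 823 in fibroblasts, with no call, and stood above 53.5, 76.7 and 37.8 in epithelial cells (4.39 ± 0.31). The small proteoglycans DCN (646, 438 and 653 CPM) and BGN (171, 246 and 234) were higher than in epithelial cells (4.84 ± 0.59 and 5.37 ± 0.59) and did not pass against fibroblasts (-1.50 ± 0.50 and -1.47 ± 0.45). Of 15 genes tested against all other cells, 4 were higher and 2 lower (median -0.41; 1 lower without replicate 1, 1 higher and 0 lower without replicate 2, 1 to 3 lower over the other alternatives, the median taking either sign over the alternatives).

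Basement membrane genes showed a different split. Laminin chains of epithelial anchoring were low in the set. LAMB3 gave 6.59, 10.9 and 9.58 CPM against 326, 489 and 702 in epithelial cells (-5.49 ± 0.25), and LAMA3 held 2 UMIs, 78.0 (95% interval 21.5 to 646) times lower. LAMA2, the laminin chain of mesenchyme and muscle, had 0 UMIs, at least 15.7-fold lower than in fibroblasts. LAMB2 gave 46.1, 73.8 and 35.6 CPM, which overlapped the 35.9, 49.2 and 42.1 of fibroblasts. Over the list, 0 of 12 genes were higher and 4 lower than in fibroblasts (median 0.17; 2 lower without replicate 3, 0 to 4 higher and 2 to 4 lower over the other alternatives, the median taking either sign over the alternatives). Under the looser limits 4 were higher and 4 lower. Against epithelial cells 2 were higher and 5 lower (median -1.25, or -0.72 with genes at 0 UMIs set to their bound; 1 higher and 3 lower without replicate 1, 0 higher without replicate 2 or 3, 1 to 2 higher and 3 to 5 lower over the other alternatives). Against all other cells 5 of 14 were higher and 1 lower (median 0.59; 3 higher and 0 lower without replicate 1, 0 higher without replicate 2, 2 to 6 higher and 0 to 1 lower over the other alternatives).

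Genes of mesenchymal state and contraction fell on both sides. Vim, the intermediate filament of mesenchyme, gave 9662, 4419 and 4958 CPM and was higher than in epithelial cells (2.94 ± 0.39). FN1, fibronectin, gave 870.0, 733 and 551 CPM, which overlapped the 788, 947 and 580.2 of fibroblasts and did not pass. MYL9, a myosin light chain, gave 415, 522 and 257 CPM and was higher than in all other cells (2.73 ± 0.24). ACTA2, smooth muscle actin, was detected in 3 of the 95 cells at 6.59, 13.7 and 1.37 CPM and was lower than in fibroblasts (93.6, 119 and 108 CPM, -4.22 ± 0.52), a call lost when cells were chosen by the looser limits of 2 MSLN UMIs and 1 partner UMI. POSTN, periostin, a matrix protein of activated fibroblasts, gave 0, 0 and 12.3 CPM against 774, 271 and 577 (-6.24 ± 0.59). Of 15 listed genes tested, 2 were higher and 7 lower than in fibroblasts (median -1.16; 1 higher and 4 lower without replicate 2, 1 higher without replicate 3, 1 to 2 higher over the other alternatives) and 6 higher and 1 lower than in epithelial cells (median 0.84; 3 higher without replicate 2, 0 lower without replicate 3, 3 to 6 higher and 0 to 1 lower over the other alternatives). In the comparison with all other cells 5 of 16 were higher and 5 lower (median 0.14; 3 higher and 3 lower without replicate 1, 1 higher and 1 lower without replicate 2, 3 to 5 higher and 3 to 5 lower over the other alternatives, the median taking either sign over the alternatives).

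Has2, the synthase of high-mass hyaluronan, had 11 UMIs in 4 of the 95 cells, 0, 0 and 15.1 CPM, against 80.3, 65.2 and 34.5 in fibroblasts and 9.07, 5.32 and 4.18 in all other cells. The groups overlapped against all other cells, with no call, and the call against fibroblasts (-2.75 ± 0.76) was lost without replicate 1 (-2.13) and without replicate 2 (-2.17), and in DESeq2. HAS3 had 1 UMI. CD44, the main hyaluronan receptor, gave 85.7, 98.4 and 76.6 CPM, below 264, 381 and 256 in all other cells (-1.86 ± 0.21) and 343, 583 and 284 in fibroblasts (-2.10 ± 0.27) with no overlap. VCAN, versican, a proteoglycan that binds hyaluronan, gave 26.4, 0 and 12.3 CPM and was lower than in fibroblasts (350.1, 276 and 375 CPM, -4.99 ± 0.46), and it did not pass against epithelial cells, at 8.29, 9.42 and 18.4 CPM. ITIH5, a heavy chain of the family that is coupled to hyaluronan, gave 46.1, 19.1 and 27.4 CPM against 0.626, 0.660 and 0.964 in all other cells (5.11 ± 0.49), and ITIH4 gave 13.2, 32.8 and 17.8 CPM and had 0 UMIs in epithelial cells (at least 29.4-fold). Of 14 genes tested, 4 were higher and 2 lower than in all other cells (median -0.030; 1 lower without replicate 1, 1 higher without replicate 2, 2 to 4 higher over the other alternatives, the median taking either sign over the alternatives). Of 12, 2 were higher and 3 lower than in fibroblasts (median -0.26; 0 higher without replicate 2 or 3, 0 to 4 higher over the other alternatives, the median taking either sign over the alternatives) and 3 higher and 1 lower than in epithelial cells (median 0.36; 1 higher and 0 lower without replicate 3, 1 to 3 higher and 0 to 1 lower over the other alternatives, the median taking either sign over the alternatives).

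Most clotting and fibrinolysis genes were lower than in the other classes or did not pass. PLAU, urokinase, a plasminogen activator, had 1 UMI in the 95 cells against 163, 42.8 and 31.5 CPM in all other cells, a pooled ratio 93.9 (95% interval 16.8 to 3708) times lower. SERPINE2, an inhibitor of thrombin and urokinase, gave 0, 38.3 and 4.11 CPM against 205, 754 and 116 (-4.68 ± 0.40), and SERPINB2 13.2, 5.47 and 4.11 against 65.6, 68.1 and 76.6 (-3.67 ± 0.39). PLAT, the tissue plasminogen activator, gave 26.4, 19.1 and 6.84 CPM against 111, 109.8 and 85.5 in fibroblasts (-2.71 ± 0.34). Coagulation factor V, F5, gave 46.1, 2.73 and 2.74 CPM against 431, 339 and 399 in fibroblasts (-5.26 ± 0.52). F3, tissue factor, which starts clotting, gave 0, 2.73 and 15.1 CPM against 327, 197 and 173 in epithelial cells (-4.17 ± 0.52). Its inhibitor TFPI gave 59.3, 60.2 and 41.1 CPM, above 2.26, 9.42 and 4.48 in epithelial cells (3.68 ± 0.35) and below 227, 192 and 201 in fibroblasts (-1.90 ± 0.27, -1.74 and no call without replicate 3). PROS1, protein S, a cofactor of anticoagulation, gave 52.7, 60.2 and 79.4 CPM against 8.90, 10.2 and 4.68 in all other cells, and that call was also lost without replicate 2.

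By count, 0 of 12 clotting and fibrinolysis genes were higher and 6 lower than in fibroblasts (median -2.17). Against epithelial cells 2 were higher and 3 lower (median -0.56; 1 higher without replicate 3, the median taking either sign over the alternatives), and against all other cells 1 of 14 was higher and 6 lower (median -1.28; 0 higher and 3 lower without replicate 2, 1 to 2 higher and 3 to 7 lower over the other alternatives). In complement, C1R and C1S, the proteases of the C1 complex, were detected in 90 and 95 of the 95 cells. C1S gave 448, 703 and 909 CPM against 38.4, 47.9 and 35.9 in all other cells (3.95 ± 0.29) and did not pass against fibroblasts, at 547, 655 and 586 CPM. C1R gave 442, 681 and 468 against 67.5, 66.2 and 37.6 (3.16 ± 0.27). C7, of the membrane attack complex, gave 46.1, 8.20 and 10.9 CPM against 782, 693 and 495 in fibroblasts (-5.23 ± 0.50), and CFD, complement factor D, 309.8, 180.5 and 182 against 2151, 2305 and 2560.1 (-3.34 ± 0.25). C1QA and C1QB, which macrophages make, were lower than in all other cells (-3.89 ± 0.26 and -4.38 ± 0.28). Of 8 complement genes, 2 were higher and 4 lower than in all other cells (median -0.88; 2 lower without replicate 2, 2 to 4 lower over the other alternatives). Against fibroblasts 0 were higher and 6 lower (median -1.59; 3 lower without replicate 3, 3 to 6 lower over the other alternatives), and against epithelial cells 4 were higher and 1 lower (median 1.24; 0 lower without replicate 3, 2 to 5 higher and 0 to 1 lower over the other alternatives).

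TIMP1, an inhibitor of matrix metalloproteinases, was found in 94 cells, from 0 through a median of 146 to 1455 UMIs per 10000. Its sums were 10374, 14857 and 36871 CPM against 589, 1773 and 751 in epithelial cells (4.51 ± 0.44); against all other cells (1755, 2890.2 and 1771 CPM) the groups did not overlap and the call was lost without replicate 2. TIMP3, which binds to the matrix, gave 369, 232 and 443 CPM against 12.8, 8.69 and 10.8 (4.90 ± 0.25), with a fold change against fibroblasts of 1.60 ± 0.49 that did not pass. The metalloproteinases MMP2 (0, 13.7 and 1.37 CPM against 370.4, 474 and 446 in fibroblasts, -6.37 ± 0.49) and MMP3 (13.2, 5.47 and 2.74 against 462, 57.1 and 51.1 in all other cells, -4.51 ± 0.41) were lower. MMP7, matrilysin, was also lower than in all other cells (6.59, 24.6 and 62.9 against 432, 353 and 557 CPM, -3.83 ± 0.37). The calls of MMP3 and MMP7 were lost under the looser limits. Of 15 genes, 2 were higher and 6 lower than in all other cells (median -1.54; 1 higher without replicate 2, 3 to 6 lower over the other alternatives). Of 13, 4 were higher and 5 lower than in fibroblasts (median -0.66; 2 higher without replicate 2, 1 higher without replicate 3, 1 to 5 higher over the other alternatives, the median taking either sign over the alternatives) and 4 higher and 3 lower than in epithelial cells (median 0.44; 2 higher without replicate 2, 2 higher and 1 lower without replicate 3, 2 to 5 higher and 1 to 4 lower over the other alternatives, the median taking either sign over the alternatives).

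Retinoid genes were led by ALDH1A2, an enzyme that makes retinoic acid. It gave 13.2, 38.3 and 53.4 CPM in 27 of the 95 cells, against 0.483, 0.318 and 0.828 in all other cells (6.04 ± 0.54) and 0.753, 1.35 and 0.995 in epithelial cells (5.39 ± 0.54). Fibroblasts had 0 UMIs, so the set was at least 62.2-fold higher. In the fit with fibroblasts and epithelial cells, ALDH1A2 passed the filter on low counts only through the set. Its fold change against epithelial cells is therefore a description. RARRES2, the retinoid-responsive gene of the chemoattractant chemerin, gave 567, 643 and 421 CPM and stood above all other cells (27.7, 30.1 and 28.6 CPM, 4.12 ± 0.24) and epithelial cells (4.93 ± 0.43) but not apart from fibroblasts (585, 565 and 621 CPM, not passed). Of 11 genes tested, 4 were higher and 0 lower than in all other cells (median 1.54; 2 higher without replicate 1 or 2, 2 to 6 higher and 0 to 2 lower over the other alternatives, the median taking either sign over the alternatives). Of 10, 1 was higher and 1 lower than in fibroblasts (median -0.22; 2 higher and 0 lower without replicate 1, 2 lower without replicate 2, 0 lower without replicate 3, 0 to 3 higher and 0 to 1 lower over the other alternatives, the median taking either sign over the alternatives) and 3 higher and 2 lower than in epithelial cells (median 0.093; the median taking either sign over the alternatives).

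Many growth factors and their binding proteins were lower than in fibroblasts: of 26 such genes and receptors, 2 were higher and 12 lower (median -2.09, or -1.48 with genes at 0 UMIs set to their bound; 1 higher without replicate 2 or 3, 1 to 3 higher over the other alternatives). IGF1 gave 19.8, 5.47 and 2.74 CPM against 285, 124 and 257 in fibroblasts (-4.99 ± 0.38), and its binding proteins IGFBP4 (59.3, 2.73 and 9.58 against 1746, 1090.3 and 1629, -6.57 ± 0.46) and IGFBP6 (52.7, 24.6 and 23.3 against 650.3, 267 and 394, -3.66 ± 0.22) were also lower. GREM1, a BMP antagonist, and HGF, the ligand of MET, had 0 UMIs, at least 68.7-fold and 4.81-fold lower. MET itself gave 59.3, 54.7 and 35.6 CPM against 7.02, 2.66 and 4.14 in fibroblasts (3.45 ± 0.43) and did not pass against epithelial cells, at 29.4, 70.0 and 47.3 CPM. FGFR1 gave 92.3, 98.4 and 135 CPM, overlapping the 109, 103 and 80.7 of fibroblasts and above 4.52, 5.39 and 8.46 in epithelial cells (4.41 ± 0.31). DKK3, a secreted protein of the dickkopf family, gave 85.7, 65.6 and 111 CPM against 8.76, 6.78 and 4.98 in all other cells (3.66 ± 0.34). RSPO3, an R-spondin that strengthens Wnt signals, gave 59.3, 95.7 and 67.1 CPM against 1.01, 1.23 and 1.67 (5.73 ± 0.38) and had 0 UMIs in epithelial cells, at least 101-fold fewer. FGF9, a ligand that mesothelium makes in the developing lung, was found in 25 cells at 0, 46.5 and 23.3 CPM, and its calls were lost without replicate 2. Against epithelial cells 9 of 26 were higher and 3 lower (median 0.88; 5 higher and 1 lower without replicate 3), and against all other cells 9 of 29 were higher and 4 lower (median 0.63; 2 lower without replicate 1, 3 higher and 2 lower without replicate 2, 3 to 10 higher and 2 to 6 lower over the other alternatives).

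**Figure D4:**
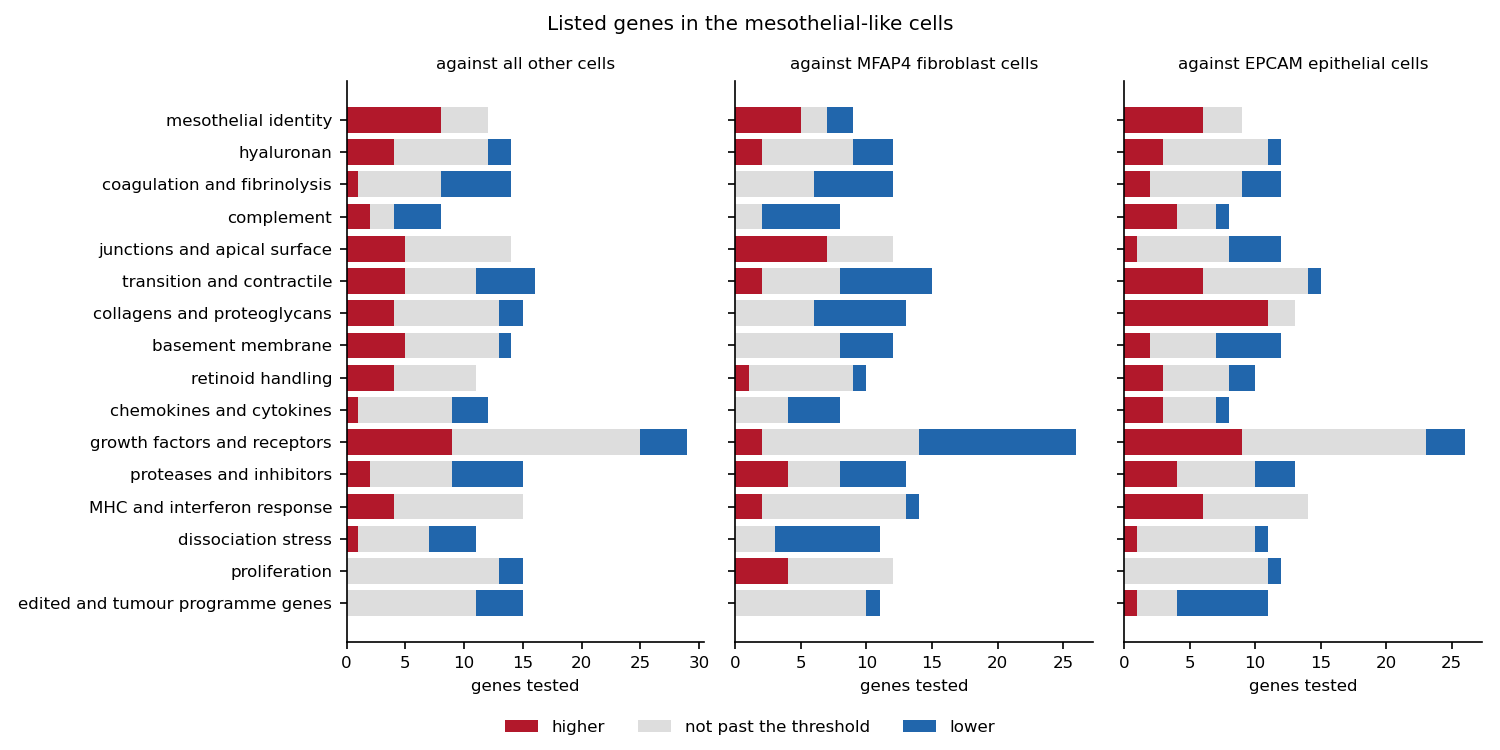
Number of tested genes (x axis) of each of 16 lists (y axis) that were higher (red), lower (blue) or not past the threshold (grey) in the mesothelial-like cells against each of the 3 comparators. Junction genes are on the higher side against fibroblasts (7 of 12), and collagen and proteoglycan genes are on the higher side against epithelial cells (11 of 13).

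Chemokine and cytokine genes were lower than in fibroblasts or did not pass. CCL2, which attracts monocytes, was found in 34 cells at 303, 818 and 171 CPM, below 2086, 3168 and 1041 in fibroblasts (-2.32 ± 0.26) and above 14.3, 29.6 and 14.9 in epithelial cells (4.53 ± 0.30). IL33 gave 6.59, 60.2 and 16.4 CPM against 181, 286 and 216 in fibroblasts (-2.89 ± 0.42), and CCL19 and CCL11 had 0 UMIs, at least 227-fold and 105-fold lower. CXCL14 gave 138, 68.4 and 71.2 CPM against 12.6, 3.67 and 10.8 in all other cells (3.33 ± 0.36). Of 8 genes, 0 were higher and 4 lower than in fibroblasts (median -1.11; 2 to 5 lower over the other alternatives) and 3 higher and 1 lower than in epithelial cells (median 1.04; 0 lower without replicate 1 or 3, 1 to 4 higher and 0 to 2 lower over the other alternatives). Of 12, 1 was higher and 3 lower than in all other cells (median -1.09, or -0.95 with genes at 0 UMIs set to their bound; 2 higher without replicate 1, 1 lower without replicate 2, 1 to 2 higher over the other alternatives).

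Immediate early genes of dissociation stress were lower than in fibroblasts, where 8 of 11 passed as lower and 0 as higher (median -1.31; 3 lower without replicate 2, 5 to 8 lower over the other alternatives). IER2 gave 257, 178 and 285 CPM against 739, 719.8 and 796 (-1.56 ± 0.21), and EGR1 33.0, 16.4 and 61.6 against 168, 144 and 156 (-1.90 ± 0.32). Against epithelial cells 1 of the 11 was higher and 1 lower (median 0.33; 3 higher and 0 lower without replicate 1, 0 lower without replicate 2 or 3, 1 to 4 higher and 0 to 1 lower over the other alternatives, the median taking either sign over the alternatives). Against all other cells 1 was higher and 4 lower (median -0.60; 0 higher and 1 lower without replicate 1, 0 higher and 0 lower without replicate 2, 0 to 1 higher and 1 to 5 lower over the other alternatives). The higher mitochondrial share of the mesothelial-like cells stood beside these values, and its part in them was not tested.

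In the list of antigen presentation and interferon response, 4 of 15 genes were higher than in all other cells and 0 lower (median 0.26; 0 higher without replicate 2, 0 to 4 higher over the other alternatives). With no replicate block 0 were higher in each of the 3 comparisons, and under the looser limits 0 were higher than in all other cells. IFIT3, induced by interferon, gave 244, 306 and 39.7 CPM in the set and 148, 93.4 and 7.34 in all other cells. Within each animal the set was higher. Between animals the values overlapped, and replicate 3 was the lowest in both. Of 14 genes, 6 were higher and 0 lower than in epithelial cells (median 0.93; 1 higher without replicate 3, 0 to 8 higher over the other alternatives), and 2 were higher and 1 lower than in fibroblasts (median 0.29; 0 higher without replicate 1 or 2, 0 higher and 0 lower without replicate 3, 0 to 2 higher over the other alternatives, the median taking either sign over the alternatives).

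Among cell cycle genes, the part held by a single cell was examined for CDK1 and TOP2A only. CDK1 gave 283, 19.1 and 1.37 CPM, and 41 of the 51 UMIs came from the deepest cell of replicate 1. TOP2A gave 67 UMIs, of which 33 (49.3%) came from 1 cell of replicate 1. CDK1 was found in 6 of the 95 cells and TOP2A in 11. Of 12 cell cycle genes, 4 were higher and 0 lower than in fibroblasts (median 1.88; 1 higher without replicate 2 or 3, 1 to 7 higher over the other alternatives), and 2 were higher without cells over 50000 UMIs. Against all other cells 0 of 15 were higher and 2 lower (median -1.02; 5 lower without replicate 1, 0 lower without replicate 2, 1 to 10 lower over the other alternatives); the 10 lower were found without cells over 50000 UMIs. Against epithelial cells 0 of 12 were higher and 1 lower (median 0.065; 4 lower without replicate 1, 0 lower without replicate 2 or 3, 0 to 1 higher and 0 to 1 lower over the other alternatives, the median taking either sign over the alternatives).

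ALK, the kinase gene of the inversion, had 0 UMIs in the 95 cells, which allows up to 2.40 CPM, against 3.28, 11.1 and 3.23 CPM in all other cells. RB1 was found in 19 cells at 26.4, 13.7 and 13.7 CPM against 15.5, 19.1 and 10.7 and did not pass; 3′ end counts do not show whether an allele was edited. NKX2-1, the lung epithelial transcription factor, had 2 UMIs, 132 (95% interval 36.6 to 1096) times lower than in epithelial cells, and SFTPC gave 26.4, 57.4 and 58.8 CPM against 18193, 9621 and 9788 (-7.61 ± 0.48). SOX2 and GKN2 had 0 UMIs. Of 11 genes, 1 was higher and 7 lower than in epithelial cells (median -1.29; 0 higher without replicate 1, 0 higher and 3 lower without replicate 2 or 3, 0 to 2 higher and 3 to 8 lower over the other alternatives), and 0 were higher and 1 lower than in fibroblasts (median -0.75, or -0.20 with genes at 0 UMIs set to their bound; 0 to 3 higher and 0 to 2 lower over the other alternatives, the median taking either sign over the alternatives). Under the looser limits the direction against fibroblasts turned, with 3 higher and 0 lower and a median of 0.62. Of 15, 0 were higher and 4 lower than in all other cells (median -1.18; 2 lower without replicate 1, 0 lower without replicate 2, 2 to 6 lower over the other alternatives).

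Markers of other lineages were summed in each class. The 4 measured immune genes summed to 119, 194 and 114 CPM against 1200, 1487 and 1154 in all other cells, and PTPRC gave 13.2, 62.9 and 27.4 CPM against 387, 547 and 358 (-3.69 ± 0.33). The 3 B and plasma cell genes summed to 2023, 50312 and 10816 CPM, with most of the last 2 sums in the 2 IGKC cells of replicates 2 and 3. The 5 T cell genes summed to 0, 257 and 56.1 CPM and the 6 macrophage genes to 382, 312 and 271 CPM, against 1748, 2219 and 1859 for macrophage genes in all other cells. The 7 airway and alveolar genes summed to 65.9, 65.6 and 712 CPM against 32930, 13616 and 19613 in epithelial cells. The 712 CPM of replicate 3 came mostly from the SCGB3A2 cell. EPCAM and CDH1, among the 7, chose the epithelial cells, so part of that gap was set by the choice. Of 4 other genes of the 7 tested against epithelial cells, 0 were higher and 4 lower. The 8 fibroblast genes summed to 1944, 2021 and 2588 CPM, below 9056, 6189 and 8141 in fibroblasts. MFAP4, FIBIN, PDGFRA and COL1A1, among the 8, chose the fibroblasts, so part of that gap was set by the choice. Of 3 other genes of the 8 tested against fibroblasts, 0 were higher and 1 lower. All other cells gave sums of 2415, 1246 and 1261, so the set was lower in replicate 1 and higher in replicates 2 and 3. Against all other cells 2 of the 8 were higher and 0 lower. The 4 endothelial genes summed to 33.0, 16.4 and 6.84 CPM. The 4 basal epithelial genes summed to 283, 118 and 186 CPM, with KRT5 at 0 and 39 of the 41 KRT14 UMIs of replicate 1 in the deepest cell, and the 6 mural genes to 59.3, 35.6 and 24.6 CPM. The part of these transcripts in the fold changes above was not tested beyond leaving out the 11 cells. The 2 neutrophil genes summed to at most 12.3 CPM and the 3 bone matrix genes to at most 16.4 CPM.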

How the data were processed

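Each library was deposited by the authors as a matrix of raw UMI counts, made with Cell Ranger (7.1.0 per the file headers, 8.0.0 per the submitters' processing notes); genome build and annotation: not given in the sources used here. The labels name 1 group of 3 animals and no experimental contrast, so cell classes were compared within animals. Of 23189 features, 11611 had no gene symbol and held 36.8% to 37.8% of the UMIs of a library; they stayed in the tests and were not named. The members and lists were chosen with earlier results of these data known. Scrublet (scanpy 1.11.5) set its own limit at a value that marked 1 cell and so did not work; a fixed score of 0.2 was used as an alternative, and no cell was removed in the tests reported.

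Counts were summed per animal and class and fitted with edgeR 4.0.16 in R 4.3.3 (TMM, filterByExpr, quasi-likelihood test, animal as block since the sums of a replicate come from the same animal). The older quasi-likelihood method gave 1 spread for all genes and became an alternative after that was seen. Standard errors were taken as the fold change over the square root of F. CPM values use all UMIs of the sum. Bounds for genes at 0 use a floor of 3 counts over the class; ratios of pooled counts carry 95% exact intervals for counting error only. Named genes were list members or, by the size of their fold change with the same sign in 3 of 3 animals, the 15 highest and 10 lowest against all other cells and the 8 each way against each class. On simulated data with 3 animals, genes changed 2-fold, 4-fold, 8-fold and 16-fold were called in 0%, 12%, 54% and 78% of cases against all other cells. The simulation changed 50 genes per fold among 11196, a smaller part than was called in the data, and its spread was assumed. Its rates are therefore not the power of the tests reported. An exact permutation test of a single value over 3 animals (two-sided sign flips) cannot go below p = 0.25, so the share was not tested. No sequence is printed. Some list genes are not reported here by name and remain in the list counts.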

Additional observations from a re-analysis of the deposited data

How the results depend on the processing

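The animal block pairs classes of the same animal; with no replicate block, 1947, 1013 and 1426 genes were called against all other cells, fibroblasts and epithelial cells, in place of 2019, 1272 and 1817. Leaving out 1 replicate gave 0 to 1062, 535 to 989 and 667 to 1566 genes. The 0 against all other cells came without replicate 3, where edgeR alone was run and 2350 genes had an unadjusted p under 0.05; without replicate 2 it was 456. A mitochondrial limit of 10% gave 1097 genes against all other cells and 1073 against epithelial cells. Other cells matched on UMIs gave 887 genes of 6249 tested, so fewer genes could be called there. DESeq2, RLE factors, no filter on low counts, the older quasi-likelihood method, both other choices of limits, and leaving out cells by Scrublet score, by totals over 50000 UMIs or by mixed lineage each kept the 3 counts within 1.5 times. The mean share of cells was 0.385% in the main choice. Over the alternatives it ran from 0.207% (mitochondrial limit 10%) to 0.582% (looser limits), and from 0.188% to 0.534% on leaving out 1 replicate. Each move was less than the SD of 0.357, but that SD is almost as large as the mean. A limit of 1 SD therefore does not show that the share was stable. Leaving out cells over 50000 UMIs, leaving out cells of mixed lineage and the older method were added after seeing the data. The 7 cells of replicate 1 limit the precision of its sum. Some genes that did not pass, such as FN1 and RARRES2 against fibroblasts, are given as levels only, because the sign of their fold change differed between settings.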
